A study of Mus musculus with 4 samples.

Results

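The enzymes that attach ubiquitin to proteins and remove it again were followed in immature thymocytes exposed to a glucocorticoid. Members were chosen by gene symbol from the array annotation: E1 activating enzymes (Uba), E2 conjugating enzymes (Ube2), the ligases Ube3 and Ube4, cullins (Cul), F-box proteins (Fbx), numbered RING finger proteins (Rnf), ubiquitin-specific proteases (Usp) and ubiquitin C-terminal hydrolases (Uch). Usp18 was left out. The rule found 146 probe sets of the 10833 that name 1 gene, and these stand for 106 genes of 8251. A symbol says nothing of activity: Usp39, for example, is known mainly as a splicing factor.

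RNA came from CD4+CD8+ double-positive thymocytes, a stage of T cell development at which cells bear both coreceptors. The cells were sorted with microbeads from female C3H/HeN mice aged 4 weeks. The dexamethasone group received 1e-07 M dexamethasone, a synthetic glucocorticoid, in PBS, and the medium group received medium with 0.1% PBS. Both were kept in culture plates for 3 h, with 3 ml of medium in a well and 5e+06 cells in each ml. Each group had 2 Affymetrix arrays, which the series design calls technical replicate extracts, so p-values measure the spread between extracts and not between mice. The number of mice, and whether replicate RNA was taken from 1 pool of cells, are not given in the sources used here. With 1 pool the spread would be technical only.

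Ubiquitin is activated by an E1 enzyme, passed to an E2 enzyme and transferred to a target protein with the help of an E3 ligase, which chooses the target. Cullins are the scaffolds of a large E3 family, and F-box proteins bring targets to the complexes built on Cul1. Some ubiquitin chains send proteins to the proteasome, and others alter traffic and signalling. Deubiquitinases such as the Usp and Uch proteases cut ubiquitin off again. In thymocytes these enzymes take part in T cell receptor signalling, in the cell cycle and in the turnover of regulators of cell death.

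Few genes of the ubiquitin machinery changed within 3 h of dexamethasone. Of the 91 members tested, 1 rose, the deubiquitinase gene Usp2, and 2 fell, the membrane-bound ligase genes Rnf5 and Rnf145. These are 3.3% of the members, and 3.91% of all 5582 genes tested changed, of which 1.88% rose and 2.02% fell. The share of changed members was thus near that of all genes. The median log2 difference of the members, dexamethasone minus medium, was 0.04, and that of all genes was 0.00. A log2 difference past 0.5 in either direction was seen in 5.49% of the members and in 9.08% of all genes. A gene is said to have risen or fallen when its limma p, adjusted over all genes tested, was under 0.05.

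These directions are relative to the deposited scaling, which sets the arrays to the same average signal. Centring the arrays on their medians gave 1 rise and 3 falls among the members, beside 92 and 162 among all genes. Scaling to the 9 hybridization controls, transcripts added before hybridization that were 1.37-fold higher on the dexamethasone arrays, moved the median log2 difference of all genes to -0.45. It gave 0 rises and 37 falls among the members in limma, with 50 members at an unadjusted p under 0.05, beside 43 rises and 2469 falls among all genes. Relative to that shift, the median of the members was again 0.03 above the median of all genes.

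The arrays carried the label's markers. All 14 double-positive markers on the array, among them Cd4, Cd8a, Rag1 and Ptcra, lay above background on every array. So did some markers of each other list, 6 of 7 mature single-positive markers among them, so presence alone does not set the cell type. The summed signal of the double-positive markers was 20187 and 18910 with dexamethasone, against 19005 and 18762 in medium. Single markers did change: 1 of the 14 rose and 2 fell, which is 21.4%, beside 3.91% of all genes. The rise was that of Satb1, at 0.43 on the log2 scale (limma adjusted p = 0.0315). The falls were those of Ptcra, at -0.84 (limma adjusted p = 0.0192), and Cd8b1, at -0.33 (limma adjusted p = 0.0466). Summed signals were 1934 and 1915 with dexamethasone, against 1435 and 1408.5 in medium, for 9 B cell markers, with Cd22, Cr2 and Fcer2a at background. Most of these sums was Ighm, which rose, at 1751 and 1749 with dexamethasone, against 1282 and 1257 in medium. The 6 tested had a median log2 difference of 0.39, from -0.05 for Cd79a to 0.55 for Pax5, and only Ighm passed. For 7 mature single-positive markers the sums were 2506 and 2305 with dexamethasone, against 2059 and 2013.5 in medium, with S1pr1 at background. Il7r rose and Slfn2 had a log2 difference of 0.28, while the other 4 tested were lower with dexamethasone on average and the median log2 difference of the list was -0.22, opposite in sign to the change in the sum. For 8 double-negative markers the sums were 223 and 257 with dexamethasone, against 326 and 344 in medium, with Cd44, Il2ra, Kit, Lyl1 and Tal1 at background. Gfi1, which fell, was at 128 and 138 with dexamethasone, against 228 and 225.5 in medium, and the median log2 difference of the list was 0.02. The sums of 14 macrophage and dendritic cell markers were 1201 and 1106 with dexamethasone, against 1165 and 1183 in medium, with Adgre1, C1qa, Fcgr3, Itgam and Lyz2 at background. Those of 14 epithelial and stromal markers were 382.5 and 355 with dexamethasone, against 452 and 425 in medium. Of these, 9 were at background, Epcam, Foxn1, Krt5 and Krt8 among them, and the median log2 difference of the 5 tested was 0.09. Cldn4 fell, at 87.4 and 97.8 with dexamethasone, against 202.9 and 210.2 in medium. Col1a1 was higher, at 33.5 and 38.2 with dexamethasone, against 16.5 and 18.4 in medium, and did not pass. The groups of the other tested stromal markers overlapped. The sums of 5 erythroid markers were 164.5 and 158 with dexamethasone, against 194 and 202 in medium, with Alas2, Car1 and Slc4a1 at background. Of the 2 tested, Car2 fell, at 35.4 and 47.2 with dexamethasone, against 92.7 and 90 in medium. Hba-a1 was higher, at 112.1 and 104 with dexamethasone, against 94.3 and 99.9 in medium, and did not pass. Actin probes near the 3′ end read higher than those near the 5′ end by a ratio of 1.40 and 1.24 with dexamethasone, against 1.15 and 1.06 in medium. The same ratio for Gapdh was 0.904 and 0.823 with dexamethasone, against 0.838 and 0.845 in medium, and its groups overlapped. The part of other cells and of RNA integrity in the results below was not tested, and fewer cells of a type cannot be told apart from less RNA per cell in such a bulk measurement.

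**Figure D1:**
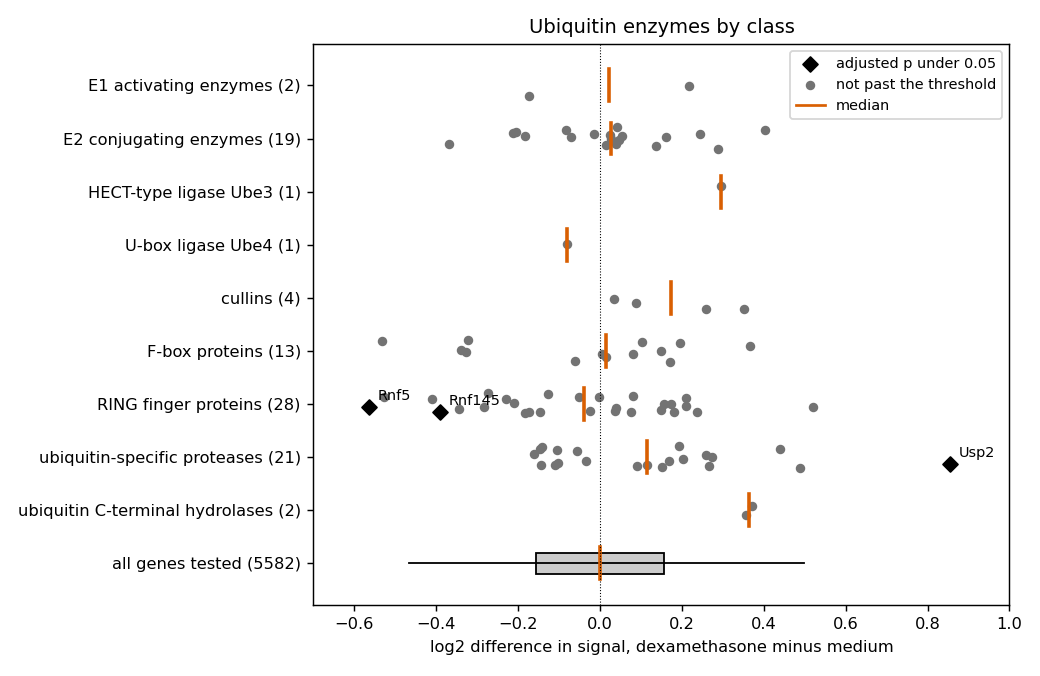
Log2 difference in signal, dexamethasone minus medium, of the 91 tested members by class, with the number tested in brackets. Each point is a gene, diamonds mark an adjusted p under 0.05, orange bars are medians, and the lowest row shows all genes tested as a box of the middle 50% with a line over the 5th to 95th percentiles. Usp2 at 0.85 lies farthest from 0, Rnf5 at -0.57 and Rnf145 at -0.39 are the members that fell, and most others lie within the range of all genes.

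Usp2 encodes a ubiquitin-specific protease that is known to act on Mdm2, cyclin D1 and fatty acid synthase, and its transcript is under circadian control in many tissues. Its brighter probe set had a signal of 94.6 and 99.2 with dexamethasone, against 51.6 and 54.7 in medium. Both dexamethasone arrays lay above both medium arrays with a wide gap. The log2 difference was 0.85 ± 0.12 (SE), a 1.81-fold rise (limma adjusted p = 0.0166). The other Usp2 probe set gave 67.9 and 57.5 with dexamethasone, against 24.8 and 32.4 in medium, and again the groups did not overlap. This probe set differed by 1.11 on the log2 scale, and its limma adjusted p was 0.0333 when every probe set was tested in place of genes. At the deposited scaling, Usp2 was thus the member that moved most, and the only member gene with both probe sets past the threshold. With scaling to the hybridization controls Usp2 was at 0.40 and Rnf5 at -1.02.

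Rnf5 encodes a RING ligase anchored in the membrane of the endoplasmic reticulum, where it takes part in the degradation of misfolded proteins. Its signal was 266 and 271 with dexamethasone, against 405.5 and 390 in medium. The dexamethasone arrays were lower by far more than the arrays of a group differed. The log2 difference was -0.57 ± 0.07 (limma adjusted p = 0.0109).

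Rnf145 encodes another RING ligase of the endoplasmic reticulum, known for promoting the sterol-dependent degradation of HMG-CoA reductase. Its signal was 1148 and 1114 with dexamethasone, against 1471 and 1496 in medium, without overlap. The log2 difference was -0.39 ± 0.06 (limma adjusted p = 0.0242). Both ligase genes had 1 probe set each, so no other probes bear on their falls.

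Leaving out any of the 4 arrays ended the calls of these 3 genes, with adjusted p from 0.0786 to 0.137 for Usp2, from 0.0565 to 0.132 for Rnf5 and from 0.0743 to 0.198 for Rnf145, while the direction of each was kept. The calls of all 3 were also lost in a fit without a variance trend, that of Rnf145 without a filter on dim genes (adjusted p = 0.0538), and that of Usp2 with scaling to the hybridization controls (log2 difference 0.40, adjusted p = 0.0926).

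The promoters of 2 of these genes are shown because dexamethasone acts through a DNA-binding receptor. None was available for Rnf5. Each window runs from 250 bases before to 50 bases after an annotated transcript start in RefSeq, build GRCm38.p6, on the plus strand. Capitals mark the E-box CACGTG and the GC box GGGCGG, both searched on both strands, so that CCGCCC is a GC box on the minus strand.
Usp2, chr9:44084670-44084969: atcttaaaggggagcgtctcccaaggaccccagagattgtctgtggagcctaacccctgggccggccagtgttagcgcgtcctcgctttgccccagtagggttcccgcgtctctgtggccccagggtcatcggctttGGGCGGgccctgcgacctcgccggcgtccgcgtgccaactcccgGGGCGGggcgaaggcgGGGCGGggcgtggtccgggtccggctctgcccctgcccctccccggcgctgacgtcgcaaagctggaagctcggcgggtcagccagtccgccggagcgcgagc
Rnf145, chr11:44518706-44519005: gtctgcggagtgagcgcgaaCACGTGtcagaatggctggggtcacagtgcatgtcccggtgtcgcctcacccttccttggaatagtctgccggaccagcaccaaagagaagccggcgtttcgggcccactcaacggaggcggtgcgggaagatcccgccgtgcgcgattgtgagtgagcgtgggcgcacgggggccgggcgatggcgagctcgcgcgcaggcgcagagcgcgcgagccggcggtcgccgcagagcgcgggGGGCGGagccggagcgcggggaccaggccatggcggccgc
The Usp2 window held 3 GC boxes and no E-box. The Rnf145 window held 1 E-box and 1 GC box. Neither held the glucocorticoid receptor half-site AGAACA, nor the full palindrome, which is AGAACA, any 3 bases and TGTTCT and so contains it, on either strand, which says only that these letters are absent from these windows. Over all 32851 windows in the table, 19.0% held the half-site, 0.00913% the palindrome, 7.15% the E-box and 35.7% the GC box. For 79 of the 106 members the table held 105 windows, of which 9.52% held the half-site, 6.67% the E-box and 70.5% the GC box. These shares were not tested against those of all windows, and base composition was not compared. Some genes have more than 1 window. Rnf145 has 2 further windows that are not printed. The motifs were chosen with the values known.

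Among the deubiquitinases, 21 of 26 Usp genes were tested, and 1 rose and 0 fell in limma. An unadjusted p under 0.05 was seen for 5 of the 21, beside 19.9% of all genes. Their median log2 difference was 0.12, and with scaling to the hybridization controls it was -0.34, with 19 of 21 lower. It was 0.11 above the median of all genes under either scaling. In 9 the dexamethasone arrays lay above the medium arrays and in 6 below, beside 24.7% and 25.7% of all genes. Usp9x, a large protease that stabilises Mcl1 and other proteins, had a signal of 129 and 128 with dexamethasone, against 93.5 and 95.6 in medium. Its groups were well apart on this probe set, with a log2 difference of 0.44 ± 0.09 (limma adjusted p = 0.0591). Another, dimmer Usp9x probe set, at 19.4 and 15.7 with dexamethasone and 17.0 and 18.1 in medium, had a log2 difference of -0.01. Usp15, which acts in TGF-beta and T cell signalling, was at 143.5 and 170 with dexamethasone, against 109 and 112.5 in medium. Its groups did not overlap, and its probe sets had log2 differences of 0.49 (limma adjusted p = 0.0675) and 0.35.

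Other proteases of the same class were closer to their medium level. Usp34, a regulator of Wnt signalling, was at 692 and 707 with dexamethasone, against 598 and 572 in medium. The log2 difference was 0.26 ± 0.06 (limma adjusted p = 0.0875), and -0.04 on the other Usp34 probe set. Usp1, which removes ubiquitin from FANCD2 and PCNA in DNA repair, was at 369.5 and 361 with dexamethasone, against 296.5 and 308 in medium, with no overlap (log2 difference 0.27 ± 0.07, limma adjusted p = 0.0919). On the lower side, Usp14, a protease bound to the proteasome, Usp39 and Usp22, a subunit of the SAGA complex, had log2 differences of -0.16, -0.15 and -0.15 with groups that did not overlap, none past the threshold. Usp7, the protease of Mdm2 and p53, was at 395 and 335 with dexamethasone, against 379 and 377 in medium, so the groups overlapped (log2 difference -0.06 ± 0.09). Usp8, which is needed for thymocyte development in mice, was at 98.4 and 96.7 with dexamethasone, against 73.8 and 104 in medium, also with overlap. For comparison, the ISG15 protease gene Usp18, left out of the rule, was at 130 and 104.5 with dexamethasone, against 3.4 and 7.0 in medium.

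Both ubiquitin C-terminal hydrolases on the array were higher with dexamethasone at the deposited scaling and lower with scaling to the hybridization controls (median log2 differences 0.36 and -0.08), and neither passed at the deposited scaling. Uchl5, a deubiquitinase of the proteasome and of the INO80 complex, was at 100.3 and 98.7 with dexamethasone, against 76.8 and 78.1 in medium. Its groups were tight and apart, with a log2 difference of 0.36 ± 0.10 (limma adjusted p = 0.125). Uchl1, best known from neurons, was at 54.6 and 42.5 with dexamethasone, against 35 and 39.1 in medium. Its groups were apart by less than the dexamethasone arrays differed (0.37 ± 0.18, limma adjusted p = 0.317).

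Cullins likewise gave 0 passing genes of 4 tested in limma, with 2 at an unadjusted p under 0.05, beside 19.9% of all genes. Their median log2 difference was 0.17, and it was -0.28 with scaling to the hybridization controls, 0.17 above all genes under either. Cul3, the scaffold that binds BTB proteins such as Keap1, was at 332.5 and 306 with dexamethasone, against 246 and 254 in medium. The dexamethasone arrays were both higher, and the log2 difference was 0.35 ± 0.08 (limma adjusted p = 0.0641). Cul1, the scaffold of the SCF ligases, was at 158 and 171 with dexamethasone, against 134 and 140 in medium (0.26 ± 0.09, limma adjusted p = 0.185). Cul4a, which works with Ddb1, and Cul2, which works with Vhl, had log2 differences of 0.09 ± 0.10 and 0.03 ± 0.10. Cul7 was at background on every array and was not tested.

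Of 16 F-box genes 13 were tested and 0 passed in limma, with 3 at an unadjusted p under 0.05, beside 19.9% of all genes. Those 3 were lower with dexamethasone. Fbxw7, which brings cyclin E, Myc and Notch proteins to the SCF ligase, was at 50.8 and 48.5 with dexamethasone, against 67.3 and 77.5 in medium. The groups were apart, with a log2 difference of -0.53 ± 0.13 (limma adjusted p = 0.0903). Fbxo9 was at 169 and 190 with dexamethasone, against 224 and 230 in medium (-0.34 ± 0.09, limma adjusted p = 0.104). Fbxw5 had log2 differences of -0.33 and -0.38 on its 2 probe sets above background, and Fbxw11, a partner of the degradation of beta-catenin and I-kappaB, of -0.32 and -0.24. Fbxo38, Fbxo8 and Fbxw4 had log2 differences of 0.20, 0.17 and 0.15 with groups that did not overlap. The median of the class was 0.02, and it was -0.04 after median centring and -0.44 with scaling to the hybridization controls.

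RING finger genes held both falls of the family, 2 of 28 tested, with 8 at an unadjusted p under 0.05, beside 19.9% of all genes. Groups did not overlap for 4 higher and 10 lower genes, beside 24.7% and 25.7% of all genes. The median log2 difference was -0.04 (-0.49 with scaling to the hybridization controls, 0.05 below that of all genes). Rnf149 was at 53.2 and 54.3 with dexamethasone, against 66.1 and 77.9 in medium (-0.41 ± 0.14, limma adjusted p = 0.167). Rnf103, another ligase of the endoplasmic reticulum, had a log2 difference of -0.34 ± 0.11 (limma adjusted p = 0.156). On the higher side, Rnf4, which ubiquitinates SUMO-modified proteins, was at 824 and 842 with dexamethasone, against 731 and 738 in medium (0.18 ± 0.06, limma adjusted p = 0.169). Rnf7, a RING partner of Cul5, was at 67.9 and 71.0 with dexamethasone, against 62.6 and 60.4 in medium (0.17 ± 0.12). Rnf227 had the highest log2 difference of the class, 0.52 ± 0.32, but was above background on 1 array of 4. Rnf10 and Rnf167, bright on all arrays, had log2 differences of -0.00 ± 0.07 and -0.03 ± 0.08.

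The E2 enzymes showed 0 passing genes of 19 tested in limma, with 2 at an unadjusted p under 0.05, beside 19.9% of all genes. Their median log2 difference was 0.03 (-0.03 after median centring, -0.43 with scaling to the hybridization controls). Their median absolute log2 difference was 0.08, beside 0.16 for all genes tested. Ube2s, which extends ubiquitin chains for the anaphase-promoting complex, was at 610.5 and 532 with dexamethasone, against 765 and 710.5 in medium. Both dexamethasone arrays were lower, and the log2 difference was -0.37 ± 0.09 (limma adjusted p = 0.0759). Ube2c, which starts those chains, overlapped between groups at 48.0 and 36.5 with dexamethasone, against 43.6 and 44.4 in medium. Ube2g1, an E2 of the degradation pathway at the endoplasmic reticulum, was at 327 and 330 with dexamethasone, against 259 and 279 in medium (0.29 ± 0.08, limma adjusted p = 0.0974). Ube2k had log2 differences of 0.24 and -0.08 on its probe sets, and Ube2z of -0.21 and 0.07, so their probe sets did not share a sign. Those of Ube2h did, at -0.18 on the brightest and -0.46 on the other. The other Ube2h probe set was at 192 and 219 with dexamethasone, against 275.5 and 288 in medium. It did not pass when every probe set was tested (limma adjusted p = 0.0554).

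Of the partners that build signalling chains, none passed in limma, and differences between them were not tested. Ube2n, the catalytic E2 of the chains that recruit signalling complexes, was at 423 and 411 with dexamethasone, against 407 and 400 in medium (log2 difference 0.05 ± 0.07). Its partner Ube2v1 was at 442.5 and 430 with dexamethasone, against 437 and 404 in medium (0.05 ± 0.07). The related Ube2v2 was dimmer, at 34.4 and 30.5 with dexamethasone, against 22.5 and 26.1 in medium, and its groups did not overlap. Its log2 difference of 0.40 ± 0.19 was the highest of the tested E2 genes and did not pass (limma adjusted p = 0.308). Ube2r2, a partner of the SCF ligases, had a log2 difference of -0.01 ± 0.06.

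Among the E1 enzymes, Uba3, a subunit of the enzyme that activates NEDD8 for the cullins, was at 78.1 and 70.2 with dexamethasone, against 63.6 and 63.6 in medium (0.22 ± 0.12, limma adjusted p = 0.384). Uba7, which activates ISG15, was at 153 and 147 with dexamethasone, against 166 and 172 in medium (-0.17 ± 0.08, limma adjusted p = 0.317). Neither passed, although the groups of each were apart. Ube2l6, the E2 of ISG15, was near background, at 14.5 and 5.4 with dexamethasone, against 3.8 and 9.3 in medium, and was not tested. Uba1y, a Y-linked relative of the ubiquitin E1, was at background on every array.

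The last classes had 1 gene each. Ube3a, the HECT-type ligase known from Angelman syndrome, was at 35.8 and 32.8 with dexamethasone, against 28.4 and 27.1 in medium (0.30 ± 0.17, limma adjusted p = 0.401). Ube4b, a U-box ligase that extends chains, was at 172 and 173 with dexamethasone, against 180 and 184.5 in medium (-0.08 ± 0.08, limma adjusted p = 0.627). Both had groups that did not overlap, and neither passed.

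**Figure D2:**
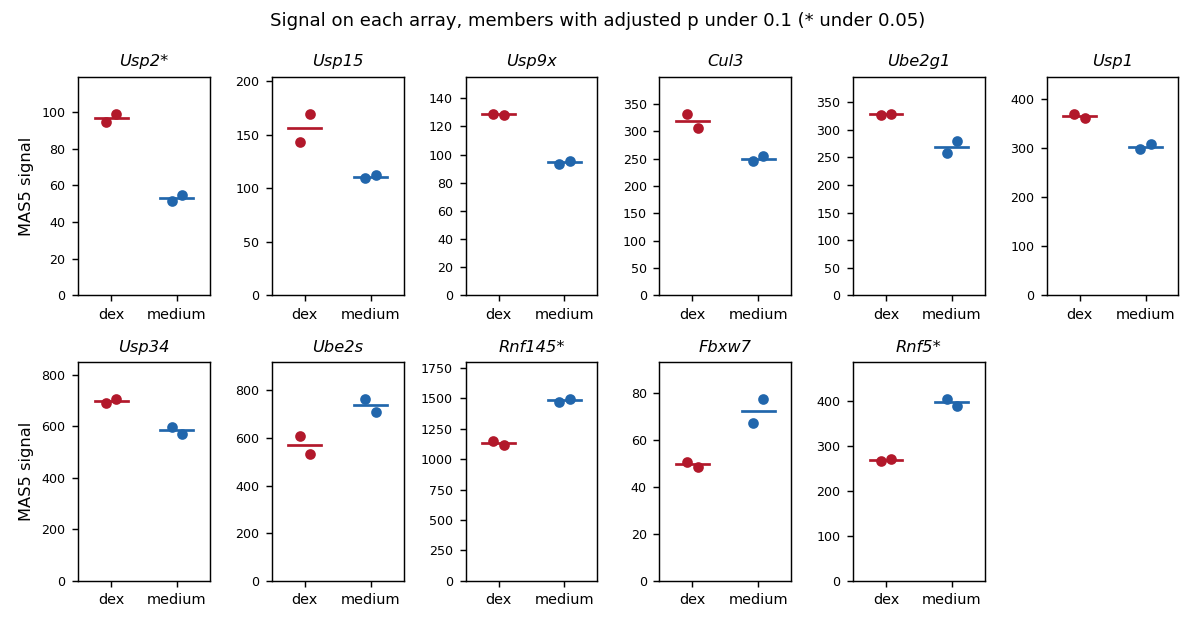
MAS5 signal on each array for the 11 members with a limma adjusted p under 0.1, ordered by log2 difference. Points are arrays, with dexamethasone left of medium, and lines are group means of 2 arrays. In each panel the groups do not overlap, which the choice by p on these same arrays favours. Groups did not overlap for 50.5% of all genes tested. Of the members shown, 7 are higher and 4 lower on the dexamethasone arrays.

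Between the called genes and the rest lay 8 members with an adjusted p from 0.05 to 0.1, which are 8.79% of the members, beside 4.19% of all genes in the same range. They were Usp9x, Cul3, Usp15, Usp34, Usp1 and Ube2g1, higher with dexamethasone, and Ube2s and Fbxw7, lower. None is a call, and both shares count genes measured on the same 4 arrays. At an unadjusted p under 0.05 there were 21 members, 23.1%, beside 19.9% of all genes. Groups did not overlap for 53 members, 58.2%, beside 50.5% of all genes.

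The precision behind these values sets what could be seen. For 52 of the 88 members that did not pass, the 95% interval of the log2 difference lay inside -0.5 to 0.5, and for 84 it lay inside -1 to 1. At the deposited scaling, changes of 2-fold or more were thus outside the interval for nearly all of them, whereas smaller changes were not detectable for many. Over all tested members 94.5% of intervals lay inside -1 to 1, and over all genes tested 88.0%. These intervals hold for the deposited scaling and for the spread between extracts. Scaling to the hybridization controls, which moved the median of all genes to -0.45, put Fbxw7 at -0.98.

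Probes of the same gene gave a check on the size of small differences. Of 33 member genes with more than 1 probe set, 22 had more than 1 above background on every array. In 11 of these 22 the probe sets shared a sign, and the median gap between probe sets of a gene was 0.13 on the log2 scale. Usp2, Usp15, Rnf2, Fbxw5, Fbxw11 and Ube2h were among the genes whose probe sets shared a sign. Rnf138, Usp9x, Ube2k and Usp34 had gaps of 0.48, 0.45, 0.32 and 0.30 and differed in sign.

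**Figure D3:**
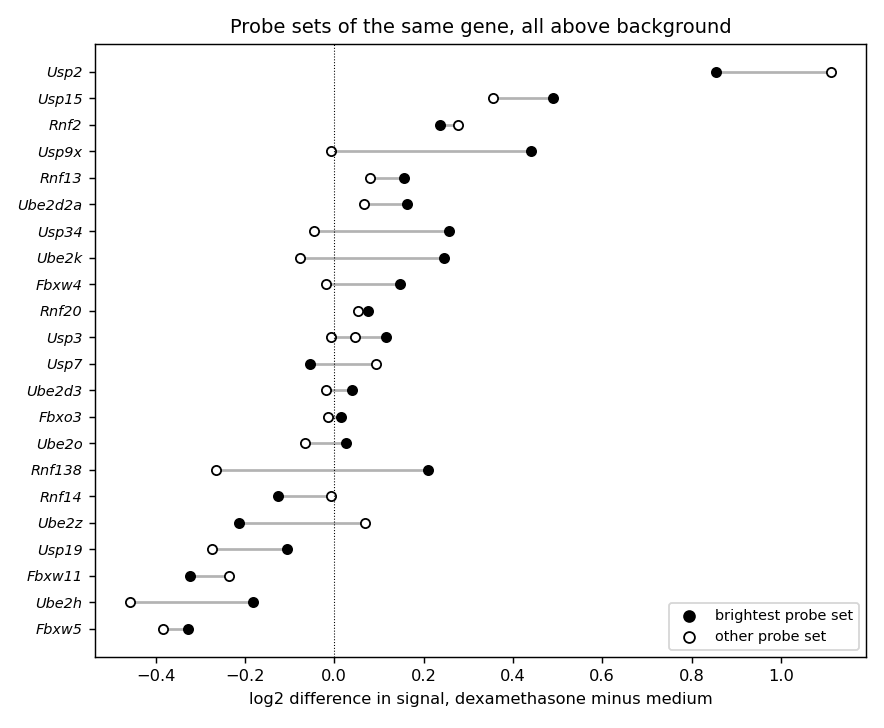
Log2 difference, dexamethasone minus medium, of each probe set above background on every array, for the 22 member genes with more than 1 such probe set. Filled points are the brightest probe set of a gene, open points the others, and grey lines join them. Both Usp2 probe sets lie at 0.85 or more, while those of Rnf138 lie on both sides of 0.

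In all, 15 members were not tested because their brightest probe set was too dim, and 14 of them were at or under the background signal of 14 on every array, the exception being Ube2l6. Of the tested members, 88 of 91 lay above background on every array. The untested genes were Uba1y, Ube2l6, Ube2w, Cul7, Fbxl12, Fbxl15, Fbxo15, Rnf112, Rnf114, Rnf225, Usp12, Usp17la, Usp17lc, Usp29 and Usp42. No fold is given for them.

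Outside the family, 129 other genes of the ubiquitin pathway were tested, from 7 lists of ubiquitin-like modifiers, other ligases, cullin partners, the anaphase-promoting complex and other deubiquitinases. Of these, 2 rose and 4 fell, which is 4.65%, beside 3.91% of all genes, and their median log2 difference was -0.02. Anapc16, a small subunit of the anaphase-promoting complex, rose. It was at 390 and 406.5 with dexamethasone, against 216 and 212 in medium, a 1.86-fold difference (log2 0.89 ± 0.07, limma adjusted p = 0.00251). It was the only one of 12 tested genes of that complex and its activators to pass, and the lowest of the list was at -0.20. Tnfaip3, the deubiquitinase and ligase A20, was at 249 and 290 with dexamethasone, against 119 and 145 in medium. It rose 2.04-fold (limma adjusted p = 0.0113), 1 of 13 other deubiquitinases tested.

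Falls in the pathway were spread over several kinds of ligase. Arih1, a RING-between-RING ligase that works with cullins, was at 234.5 and 236 with dexamethasone, against 350 and 352 in medium (log2 -0.58 ± 0.07, limma adjusted p = 0.0102). The mean of its probe sets gave -0.32 and did not pass (limma adjusted p = 0.155). Nedd4l, a HECT-type ligase of membrane proteins, and Znrf2, a RING ligase, fell with log2 differences of -0.44 ± 0.09 and -0.43 ± 0.08 (limma adjusted p = 0.0489 and 0.0432). Socs1, which recruits targets to Cul5 and restrains cytokine signalling, was at 1317 and 1427 with dexamethasone, against 2300.4 and 2076 in medium, and fell with a log2 difference of -0.67 ± 0.08 (limma adjusted p = 0.00939). Of 9 ubiquitin-like modifiers tested 0 passed in limma, also at an unadjusted p under 0.05. The NEDD8 gene Nedd8 was at 396.5 and 395.5 with dexamethasone, against 423 and 429 in medium (log2 difference -0.11). The calls of Nedd4l, Znrf2 and Arih1 were lost whichever array was left out (limma adjusted p from 0.0565 to 0.251). Those of Nedd4l and Znrf2 were also lost with quantile normalization (0.0624 and 0.0545), without a filter (0.0750 and 0.0680) and with the mean of probe sets (0.0962 and 0.126), and that of Nedd4l when every probe set was tested (0.0536). The call of Tnfaip3 was lost without either dexamethasone array and without medium replicate 1 (0.0545 to 0.0846), and that of Socs1 without dexamethasone replicate 1 or either medium array (0.0585 to 0.114). All 6 calls were lost without a variance trend (0.0656 to 0.165). That of Anapc16 held whichever array was left out but was lost with scaling to the hybridization controls (log2 0.44, limma adjusted p = 0.0581).

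**Figure D4:**
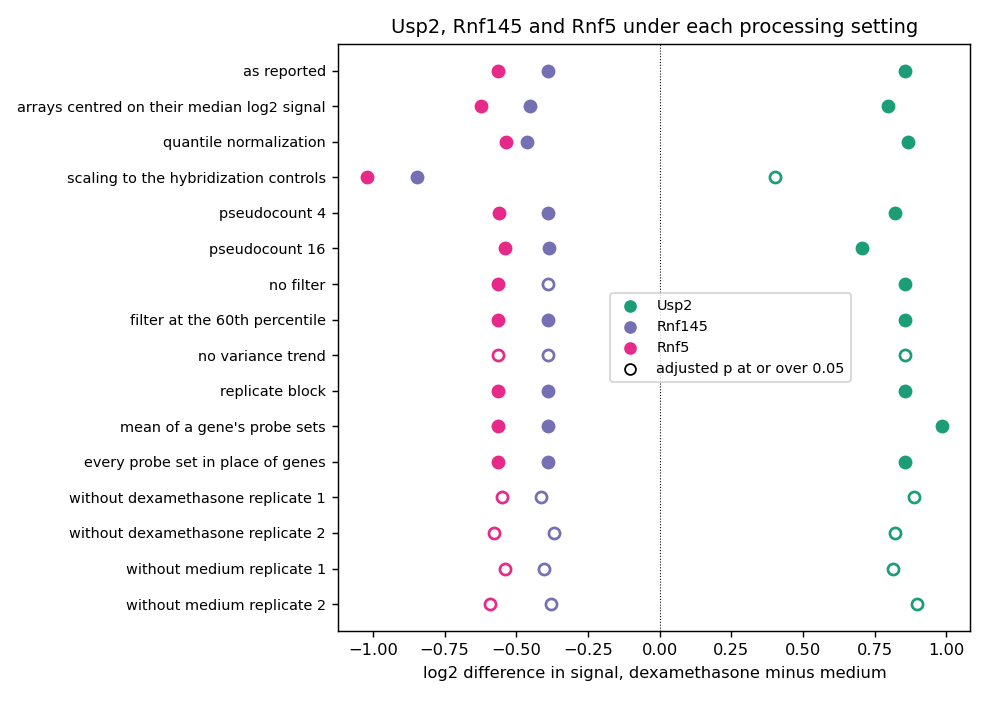
Log2 difference, dexamethasone minus medium, of the 3 members that passed, as reported and under 15 other processing settings. Filled points have an adjusted p under 0.05 and open points do not. Usp2 lies between 0.40 and 0.98, Rnf145 between -0.85 and -0.37 and Rnf5 between -1.02 and -0.54, so that no setting turns a direction, while leaving out any array opens the points of all 3.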

How the data were processed

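Affymetrix arrays of 2 dexamethasone and 2 medium extracts were compared. Per the submitters' processing notes the authors used MAS5, whose version is not given in the sources used here, and the deposited numbers are linear array intensities. On every array their mean, with 2% trimmed from each end, was between 100.06 and 100.07. The table held 12488 probe sets, 66 of them controls, and names came from the platform annotation, where 10833 probe sets name 1 gene, 396 several and 1193 none. Of these, 10817 matched the reference gene table of assembly GRCm38.p6 by gene ID.

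Log2(signal + 1) was used, which understates changes of dim genes. Each gene was taken by its brightest probe set, and genes at or under the 40th percentile of mean log2 signal were left out. Groups were compared with lmFit and eBayes with a variance trend (limma 3.58.1, R 4.3.3, two-sided, Benjamini-Hochberg over 5582 genes). The fit was tried only on data simulated from its own noise model, with planted differences larger than those of the members that passed. That trial does not bear on the calls given here. Background was 14, the highest signal of 19 probe sets for bacterial and yeast transcripts not added to the samples. Values are array signals, ± SE of the fit. With 2 arrays a group, the number of arrays limits the precision.

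Members, gene lists and motifs were chosen with earlier results of these data known. Named genes were all members that passed, the 3 largest rises and falls of each class with groups apart, all tested E1, Ube3, Ube4, Uch and cullin genes, members whose probe sets disagreed past 0.5 in both directions (0 genes), and pathway genes that passed. Others were named after their values were seen. Alternatives were 3 scalings, 2 pseudocounts (4 and 16), 2 filters, no variance trend, a replicate block, 2 ways to treat probe sets and leaving out each array.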

Additional observations from a re-analysis of the deposited data

Results flagged for a closer look

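Signals were also seen in probe sets that the annotation assigns to several genes, 1 of which carries a member symbol, and which the comparisons above do not use. Those given here were picked because both dexamethasone arrays lay above both medium arrays, with all arrays above background. Among all genes tested, 24.7% had both dexamethasone arrays above both medium arrays. Not picked were a probe set at 62.1 and 25.8 with dexamethasone, against 44 and 30.3 in medium, and another at background on every array. Of those picked, a probe set assigned to 2 genes had a mean signal of 50.1 with dexamethasone (46.7 and 53.5), against 35.2 in medium (34.7 and 35.8). Another, assigned to 5 genes, had a mean signal of 604.55 with dexamethasone (608 and 601), against 571 in medium (581 and 560). Neither was tested.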

How the results depend on the processing

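Under 15 alternatives the 3 members that changed kept their direction, and Rnf5 passed in 10, Rnf145 in 9 and Usp2 in 9. The count of changed genes, 218 as reported, was 2512 with scaling to the hybridization controls, 116 without a filter, 19 without a variance trend and 353 with a replicate block, and 32 to 78 with an array left out. Members that rose, 1 as reported, numbered 0 with scaling to the hybridization controls and without a variance trend, 3 with the filter at the 60th percentile (adding Cul3 and Usp9x, beside 290 changed genes, 7.37% of those tested there, and 6.33% of members), 2 with a replicate block (adding Usp15) and 2 probe sets, both of Usp2, when every probe set was tested. Members that fell, 2 as reported, numbered 37 with scaling to the hybridization controls, 1 without a filter and 0 without a variance trend. Whichever array was left out, 0 members rose and 0 fell in limma, with 12 to 24 at an unadjusted p under 0.05, and without a variance trend 21. With an array left out, the lone array of its group is assumed to vary like the other group, and fewer arrays enter the fit. Ube2s fell with median centring (adjusted p = 0.0321) and with the replicate block (0.0253). Differences between replicates 1 and 2 correlated at 0.07 between the groups, so the numbers do not show a pairing. Elsewhere the cause was not tested.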
